A study of Mus musculus with 6 samples.

Results

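Genes of prostaglandin synthesis and reception were followed in mouse colon with chronic colitis and in control colon. The members were chosen by name, as the rows whose symbol was Ptgs1, Ptgs2, Ptges, Ptges2, Ptgis, Hpgd, Ptger2, Ptger3, Ptger4 or Alox5ap, and each was found once, giving 10 of 24421 gene rows. The choice was made with earlier results of these data known. RNA was sequenced in 3 colon samples from mice with chronic colitis induced by dextran sulfate sodium (DSS), a polymer that in mice damages the lining of the colon, and in 3 colon samples from control mice. All 6 samples came from C57BL/6 mice aged 7 weeks, per the labels, with no genetic change named in either group. The title of the series concerns a histone mark in gut inflammation, and expression alone was analysed here. No label gives the DSS dose or schedule, or says whether each sample of a group came from a separate animal, so p-values reflect sample-to-sample spread alone and that spread may be technical.

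Prostaglandins are made from arachidonic acid that phospholipases free from membranes. The cyclooxygenases encoded by Ptgs1 and Ptgs2 convert it to prostaglandin H2, and terminal synthases then make prostaglandin E2 (Ptges and Ptges2) or prostacyclin (Ptgis). Prostaglandin E2 acts on 4 EP receptors, Ptger1 to Ptger4, and is inactivated by the dehydrogenase Hpgd. In the gut it is known for roles in epithelial repair, mucus and fluid secretion and inflammation, and blocking cyclooxygenases is known to aggravate DSS colitis in mice. Alox5ap presents arachidonic acid to the lipoxygenase Alox5, the entry to the leukotriene branch.

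Promoter windows show how the inducible cyclooxygenase gene Ptgs2 and the EP4 receptor gene Ptger4, which both rose in DSS colon, and Ptgs1, the cyclooxygenase gene that is expressed without induction in most tissues, differ in sequence. Each window runs 5′ to 3′ on the gene's own strand from 250 bases before to 50 bases after the annotated start (RefSeq, GRCm38.p6), at chr1:150099781-150100080 on the + strand for Ptgs2, at chr2:36230176-36230475 on the + strand for Ptgs1 and at chr15:5244138-5244437 on the - strand for Ptger4. Capitals mark matches, on either strand, to any of 6 short motifs.
Ptgs2 promoter: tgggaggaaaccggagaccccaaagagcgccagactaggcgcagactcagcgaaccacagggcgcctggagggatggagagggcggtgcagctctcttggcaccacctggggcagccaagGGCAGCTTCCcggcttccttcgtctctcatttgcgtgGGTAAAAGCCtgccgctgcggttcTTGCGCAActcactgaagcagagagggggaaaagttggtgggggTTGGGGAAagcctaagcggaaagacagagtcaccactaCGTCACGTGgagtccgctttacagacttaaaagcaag
Ptgs1 promoter: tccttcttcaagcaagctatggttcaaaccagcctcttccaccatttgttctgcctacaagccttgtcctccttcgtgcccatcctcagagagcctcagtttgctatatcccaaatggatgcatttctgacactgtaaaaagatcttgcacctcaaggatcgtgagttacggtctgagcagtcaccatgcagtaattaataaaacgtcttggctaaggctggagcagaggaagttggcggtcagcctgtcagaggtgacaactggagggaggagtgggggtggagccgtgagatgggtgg
Ptger4 promoter: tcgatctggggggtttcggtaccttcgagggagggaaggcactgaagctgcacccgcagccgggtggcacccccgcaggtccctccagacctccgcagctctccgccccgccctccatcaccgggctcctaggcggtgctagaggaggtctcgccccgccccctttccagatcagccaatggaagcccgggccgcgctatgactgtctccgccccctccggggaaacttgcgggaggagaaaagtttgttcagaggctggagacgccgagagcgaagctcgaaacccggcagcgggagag

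The Ptgs2 window held 6 matches, and the Ptgs1 and Ptger4 windows held 0. The C/EBP motif TTNCNNAA matched at TTGCGCAA, which reads the same on both strands and begins at position -69 from the start. It also matched on the minus strand at position -25, where the printed strand reads TTGGGGAA. The cyclic AMP response (CRE) core TGACG matched on the minus strand at position 14 and shares bases with the E-box CACGTG at position 17. The looser NF-kB motif (GGNA, then any 4 bases, then CC) matched at GGCAGCTTCC and GGTAAAAGCC. Of 32851 promoter windows of the same length, 40.7% held the C/EBP motif, 46.8% the NF-kB motif, 20.8% the CRE core and 7.15% the E-box. The remaining motifs, AP-1 (TGANTCA) and the TATA box (TATAAA), were held by 7.81% and 13.6% of all windows. A window was found for 8 members, not including Ptgis and Alox5ap. Among those 8 the C/EBP motif was in 5, the NF-kB motif in 4, the E-box in 2, the CRE core in 1, the TATA box in 1 and AP-1 in 0. A match describes these letters and is not evidence of binding.

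Values are FPKM, fragment counts scaled by transcript length and by library total, so levels can be compared between genes. Sums over all genes ran from 609544 to 678076 FPKM, and 11849 to 12543 genes per sample reached 1 FPKM. Read totals are unknown, because the lowest values showed no regular step. A gene was tested if 3 or more samples had 1 FPKM or more, which left 12348, and 783 were higher and 316 lower in DSS (limma, Benjamini-Hochberg adjusted p under 0.05). Under upper-quartile scaling, which moved the median log2 difference of all tested genes to -0.01, against 0.13 as deposited, the counts were 505 higher and 532 lower, while median-of-ratios scaling gave 517 and 503. Leaving out a sample moved the number of higher genes to 519 without DSS 2, 191 without DSS 3, 314 without control 1, 192 without control 2 and 210.0 without control 3, and the number of lower genes to 584 without DSS 1, 146 without DSS 3, 108 without control 1, 58 without control 2 and 66 without control 3. On the first principal component (59% of the variance) DSS 1 scored 18.98, against 51.17 and 47.53 in DSS 2 and DSS 3 and -39.90, -39.65 and -38.13 in the controls, so DSS 1 lay nearest to control colon.

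All 10 members passed the filter on low values. Ptgs2, Ptger4 and Alox5ap rose in DSS colon, and none of the 10 fell (limma, 6 at an unadjusted p under 0.05). Over all genes tested, 8.9% were called, 6.34% higher and 2.56% lower. Groups did not overlap for 6 members, of which 5 were higher and 1 lower in DSS, against 25.6% of tested genes that lay wholly higher and 9.51% wholly lower in DSS. The median log2 fold change was 0.44 over the members and 0.13 over all tested genes. Because the members were chosen with earlier results of these data known, these comparisons with all genes are descriptions only. Without control 2 or without control 3 the number that rose was 1, Alox5ap, and without DSS 1 it was 4, with Ptgs1 added.

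**Figure D1:**
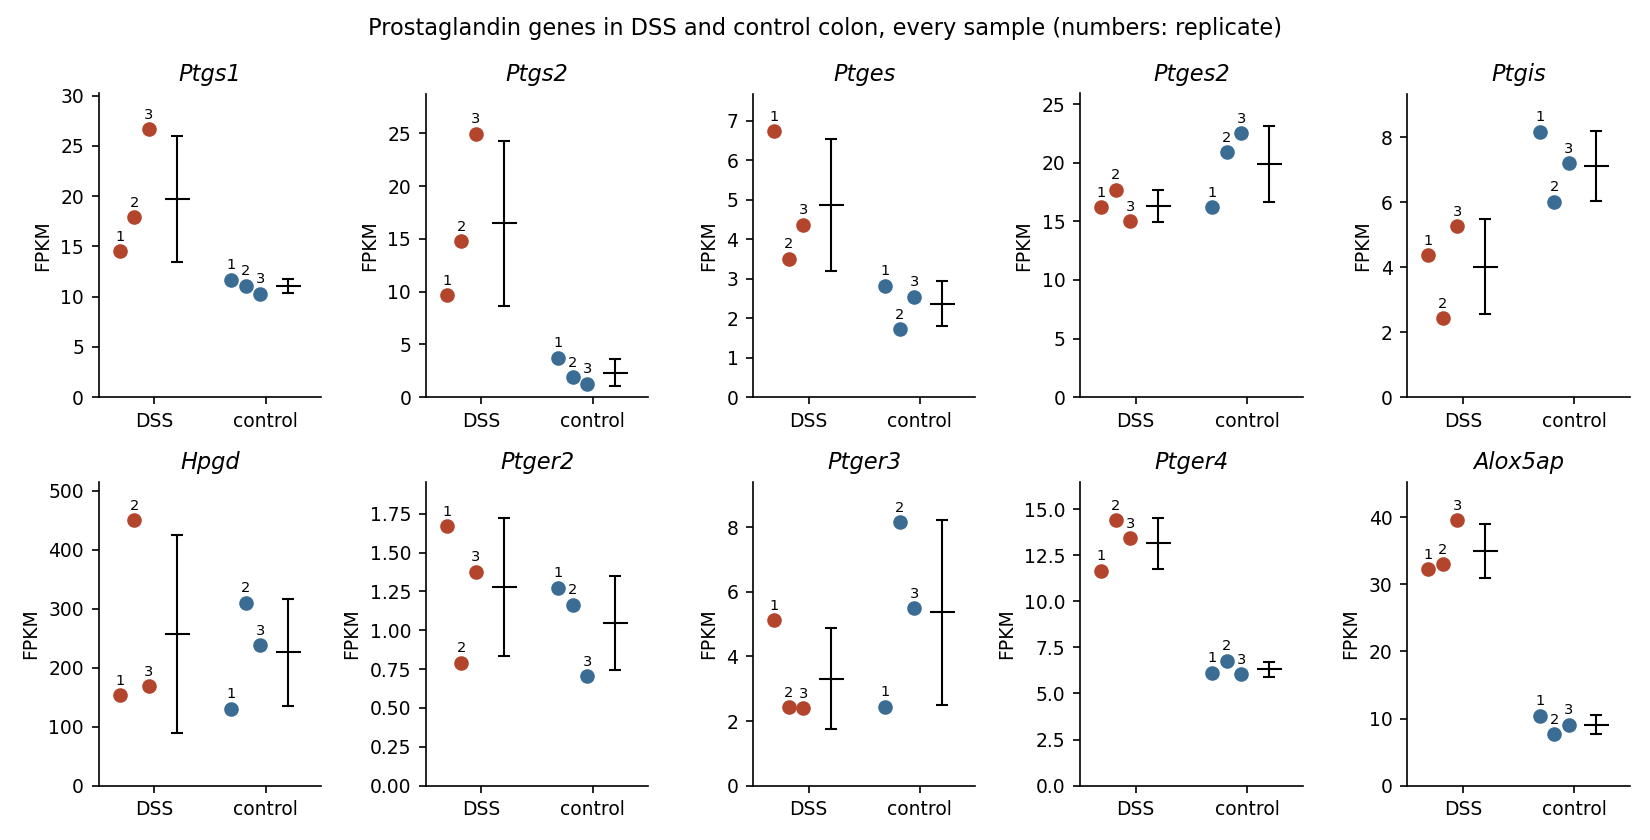
FPKM of the 10 genes in each sample, with DSS on the left and control on the right of each panel, points numbered by replicate and bars giving mean ± SD (n = 3). Ptgs1, Ptgs2, Ptges, Ptger4 and Alox5ap lie higher in every DSS sample than in any control, and Ptgis lies lower.

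The order of levels differed between the groups. In DSS colon Hpgd stood highest at 257 ± 167 FPKM (SD here and below, n = 3), followed by Alox5ap, Ptgs1, Ptgs2, Ptges2, Ptger4, Ptges, Ptgis, Ptger3 and Ptger2, the last at 1.28 ± 0.446 FPKM. In control colon Hpgd also stood highest at 226 ± 90.3 FPKM, followed by Ptges2, Ptgs1, Alox5ap, Ptgis, Ptger4, Ptger3, Ptges, Ptgs2 and Ptger2, the last at 1.05 ± 0.301 FPKM. Ranges of neighbours in this order overlapped in 4 of 9 steps in DSS colon (Ptgs1 with Ptgs2, Ptgs2 with Ptges2, Ptges with Ptgis, and Ptgis with Ptger3). In control colon they overlapped in 7 of 9 steps, every step from Ptgs1 downward. In DSS colon 3 members stood above Ptgs2, and in control colon every member but Ptger2 did.

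On GRCm38, Ptges and Ptges2 lie on chromosome 2 at 30889471 to 30929863 and 32395896 to 32405772, and Ptgis on the same chromosome at 167191805 to 167240604. Hpgd lies on chromosome 8 at 56294585 to 56321043, Ptger2 on chromosome 14 at 44988195 to 45003820, and Ptger3 on chromosome 3 at 157566892 to 157645888.

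Ptgs2, the inducible cyclooxygenase, showed the largest log2 fold change of the 10. It stood at 9.66, 14.8 and 24.96 FPKM in DSS 1, 2 and 3, against 3.73, 1.91 and 1.26 FPKM in control 1, 2 and 3. Every DSS sample lay above every control, DSS 3 highest and control 3 lowest. The mean of 16.5 ± 7.79 FPKM in DSS was 7.16 times the mean of 2.30 ± 1.28 FPKM in controls (log2 fold change 2.38 ± 0.39 SE of log2(FPKM + 1), a scale that makes changes of low genes look smaller, adjusted p = 0.0140, limma). The call was lost without control 2 (adjusted p = 0.0722) and without control 3 (adjusted p = 0.0610), and adjusted p ranged from 0.00482 to 0.0722 over 15 alternatives. The gene lies on chromosome 1, 150100031 to 150108227 on the + strand of GRCm38, with 11 exons after merging transcripts, none of which overlaps another annotated gene.

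Ptgs1, the constitutive cyclooxygenase, lay higher in DSS without passing the test. Its values were 14.5, 17.9 and 26.7 FPKM in DSS 1, 2 and 3, against 11.7, 11.1 and 10.3 FPKM in control 1, 2 and 3. The groups did not overlap, and the DSS samples were ordered as for Ptgs2, with DSS 3 highest. The log2 fold change was 0.74 ± 0.22 SE (adjusted p = 0.0824, limma). Without DSS 1 the gene was called higher (log2 fold change 0.93, adjusted p = 0.0294), and adjusted p ranged from 0.0294 to 0.225 over all alternatives. Ptgs1 lies on chromosome 2, 36230426 to 36252272, and shares 3.81% of its exonic bases with an antisense-strand transcript, Gm43621, whose reads a non-directional library cannot separate.

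The balance of the cyclooxygenases was compared within each sample, first as shares of FPKM, which do not depend on scaling between samples. Ptgs2 held 39.9%, 45.2% and 48.4% of the summed FPKM of Ptgs1 and Ptgs2 in DSS 1, 2 and 3, against 24.2%, 14.7% and 10.9% in control 1, 2 and 3. Each DSS share was above each control share, and Ptgs1 still held more than Ptgs2 in all 6 samples. The summed level of both was 24.2, 32.7 and 51.6 FPKM in DSS colon and 15.4, 12.98 and 11.6 FPKM in control colon. The log2 ratio of Ptgs2 to Ptgs1, here of FPKM + 1 and so not free of scaling for low values, was -0.30 ± 0.23 in DSS and -1.93 ± 0.46 in control colon, a difference of 1.64, against 2.09 with nothing added to FPKM (two-sided exact permutation p = 0.1, which is the lowest reachable with 3 against 3 samples, and adjusted p = 0.133 over 4 ratios, higher in 3 of 3 DSS samples).

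**Figure D2:**
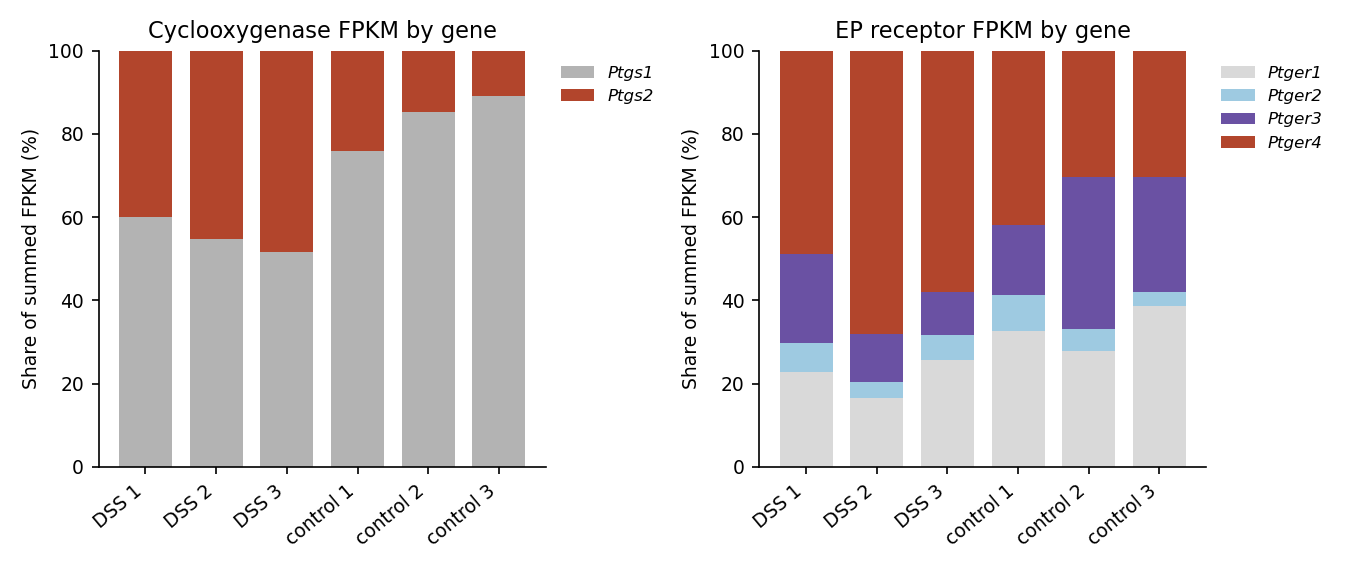
Share (%) of summed FPKM held by each gene in each sample, DSS samples left and controls right, for the cyclooxygenases (left panel) and the EP receptors (right panel). Ptgs2 and Ptger4 hold a larger share in each DSS sample than in any control.

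Among the terminal prostaglandin E synthases, neither Ptges nor Ptges2 passed the test. Ptges, the microsomal synthase that is induced with Ptgs2 in many inflamed tissues, had 6.74, 3.50 and 4.36 FPKM in DSS 1, 2 and 3, against 2.82, 1.73 and 2.54 FPKM in control 1, 2 and 3. The groups did not overlap, but DSS 2 lay close to control 1. The log2 fold change was 0.78 ± 0.25 SE (adjusted p = 0.0943, limma, and 0.0667 to 0.246 over all alternatives). Ptges2, a second membrane-associated synthase, had 16.2, 17.7 and 15.01 FPKM in DSS 1, 2 and 3 and 16.2, 20.9 and 22.5 FPKM in control 1, 2 and 3. Control 1 lay within the DSS range, and the log2 fold change was -0.26 ± 0.17 SE (adjusted p = 0.347, limma). Within samples the log2 ratio of Ptges to Ptges2 was -1.59 ± 0.45 in DSS and -2.64 ± 0.42 in control colon, a difference of 1.04 with no overlap between groups (exact permutation test, two-sided p = 0.1, adjusted p = 0.133).

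Ptgis, prostacyclin synthase, pointed the other way. It had 4.37, 2.42 and 5.26 FPKM in DSS 1, 2 and 3, against 8.17, 6.01 and 7.20 FPKM in control 1, 2 and 3. All DSS values lay below all control values, DSS 2 lowest, and the gene did not pass the test (log2 fold change -0.73 ± 0.25 SE, adjusted p = 0.113, limma). The lowest adjusted p over all alternatives was 0.0569, under upper-quartile scaling. Prostacyclin synthase is known from vessel walls, smooth muscle and fibroblasts. The summed level of 10 smooth muscle markers was 1789, 1223 and 3447 FPKM in DSS 1, 2 and 3 and 4524, 4561 and 3605 FPKM in controls 1, 2 and 3 (0 of 10 tested called, median log2 fold change -1.07), lowest in DSS 2 as Ptgis was. Among the controls Ptgis was lowest in control 2, where the smooth muscle sum was highest. The summed level of 8 endothelial markers was 20.1 to 47.7 FPKM in DSS samples and 33.3 to 40.9 FPKM in controls (0 of 8 called), also lowest in DSS 2. Among 9 fibroblast markers Pdpn rose, at 20.5 ± 7.73 FPKM in DSS samples and 8.78 ± 1.49 FPKM in controls (adjusted p = 0.0457, limma). Of all tested genes 6.34% were called higher. The fibroblast sum was 685 to 1196 FPKM in DSS samples, again lowest in DSS 2, and 638 to 776 FPKM in controls. The part of these cells in the Ptgis values was not tested. In a piece of tissue, fewer cells of a type and less RNA per cell cannot be told apart.

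Hpgd, the dehydrogenase that inactivates prostaglandin E2, was the most abundant member in every sample and showed no call. It had 153, 449.7 and 169 FPKM in DSS 1, 2 and 3 and 130.4, 309.8 and 238 FPKM in control 1, 2 and 3. DSS 2 was the highest and control 1 the lowest of the 6 samples, and the groups overlapped. The log2 fold change was 0.09 ± 0.48 SE (adjusted p = 0.924, limma), and its sign turned without DSS 2 (-0.40), without control 1 (-0.26) and with 2 other scalings (upper-quartile -0.081, median-of-ratios -0.069). Differentiated colonocytes are known to express Hpgd. Of 7 tested markers of absorptive colonocytes 5 fell, against 2.56% of all tested genes. Among them was Aqp8, at 232 ± 42.0 FPKM in DSS samples and 1502 ± 366 FPKM in control colon. The summed level of the list was 1315 to 1671 FPKM in DSS samples and 4191 to 6244 FPKM in control colon. Krt20, a marker of the same list, overlapped between groups and was not called, at 667 ± 38.7 FPKM in DSS samples and 881 ± 387 FPKM in controls (adjusted p = 0.524, limma). The part of colonocytes in the Hpgd values was not tested. The log2 ratio of Ptgs2 to Hpgd was -3.80 ± 1.06 in DSS and -6.09 ± 1.12 in control colon, with DSS 2 at -4.84 just below control 1 at -4.79 (difference 2.29, exact permutation test, two-sided p = 0.2, adjusted p = 0.2).

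**Figure D3:**
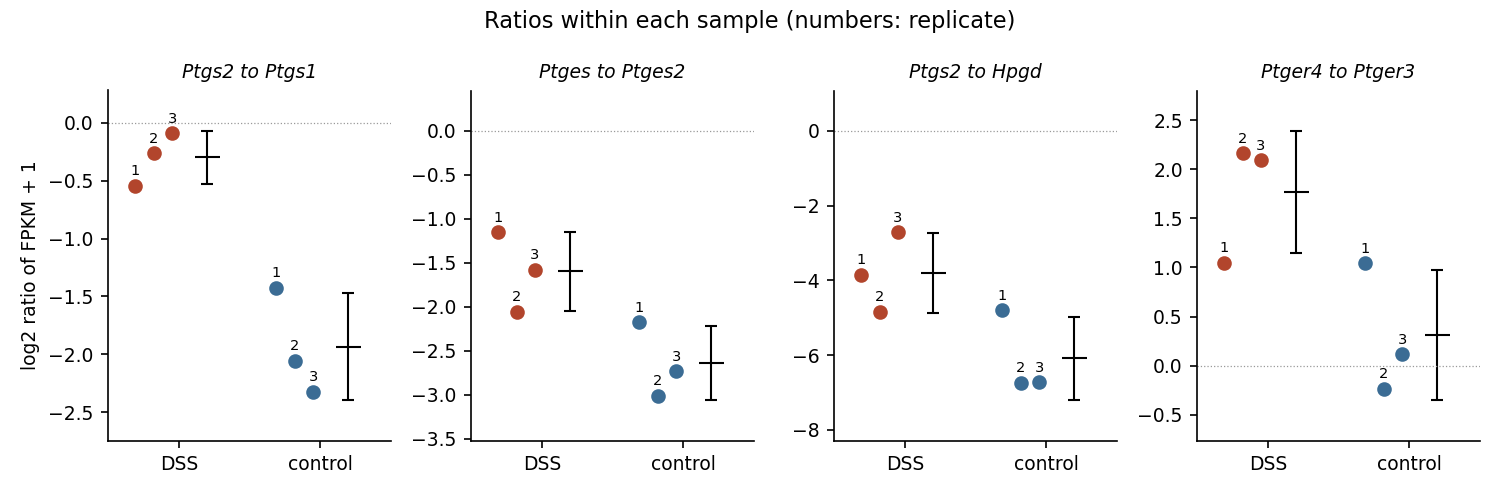
Log2 ratios of FPKM + 1 within each sample for 4 gene pairs, DSS left and control right in each panel, points numbered by replicate and bars giving mean ± SD (n = 3), with a dotted line at equal levels. The groups lie apart for Ptgs2 to Ptgs1 and Ptges to Ptges2, nearly touch for Ptger4 to Ptger3 and overlap for Ptgs2 to Hpgd.

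Of the receptors for prostaglandin E2, Ptger4 rose. Ptger4 encodes EP4, which raises cyclic AMP and is known in mice to protect the colon from DSS injury. Its values were 11.7, 14.4 and 13.4 FPKM in DSS 1, 2 and 3, against 6.12, 6.78 and 6.05 FPKM in control 1, 2 and 3. The groups were well apart and the samples within each were close. The mean of 13.2 ± 1.38 FPKM in DSS was 2.08 times that of 6.32 ± 0.400 FPKM in controls (log2 fold change 0.95 ± 0.15 SE, adjusted p = 0.0121, limma). The call was lost without DSS 3 (adjusted p = 0.0565), without control 2 (0.0551) and without control 3 (0.0676), and adjusted p ranged from 0.0106 to 0.0676 over all alternatives. Ptger4 lies on chromosome 15, 5206661 to 5244187 on the - strand, and 15.3% of its exonic bases overlap the opposite-strand pseudogene Gm15937 and 1.23% the opposite-strand gene Ttc33, which had 18.5, 18.3 and 16.1 FPKM in DSS samples and 12.3, 16.5 and 15.9 FPKM in control colon.

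The other EP receptors did not pass. Ptger2, which encodes EP2 and also raises cyclic AMP, had 1.67, 0.793 and 1.38 FPKM in DSS 1, 2 and 3 and 1.27, 1.16 and 0.706 FPKM in control 1, 2 and 3, the lowest levels among the members. The groups overlapped (log2 fold change 0.15 ± 0.21 SE, adjusted p = 0.698, limma). Ptger3, which encodes EP3 and mainly lowers cyclic AMP, had 5.12, 2.44 and 2.39 FPKM in DSS 1, 2 and 3 and 2.45, 8.16 and 5.49 FPKM in control 1, 2 and 3. Control 1 lay with DSS 2 and DSS 3 while DSS 1 lay near control 3, so the groups overlapped (log2 fold change -0.51 ± 0.40 SE, adjusted p = 0.442, limma). Ptger1, the calcium-coupled EP1 receptor and no member, had 4.95 ± 1.29 FPKM in DSS samples and 6.23 ± 1.47 FPKM in controls (adjusted p = 0.470, limma).

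As a share of the summed FPKM of the 4 EP receptors, Ptger4 held 48.8%, 68.1% and 58.0% in DSS 1, 2 and 3, against 41.9%, 30.4% and 30.3% in control 1, 2 and 3. Ptger4 was the leading EP receptor in each DSS sample and in control 1, while Ptger3 led in control 2 and Ptger1 in control 3. The summed level of the receptors was 22.7 ± 1.43 FPKM in DSS samples and 18.96 ± 3.95 FPKM in control colon. The log2 ratio of Ptger4 to Ptger3 was 1.05, 2.16 and 2.09 in DSS 1, 2 and 3 and 1.05, -0.24 and 0.12 in control 1, 2 and 3, so DSS 1 and control 1 were all but equal. The difference of 1.46 had an exact permutation p of 0.1 (two-sided, adjusted p = 0.133).

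Alox5ap, the leukotriene branch member, had the smallest adjusted p of the 10. It stood at 32.3, 33.0 and 39.5 FPKM in DSS 1, 2 and 3, against 10.5, 7.69 and 9.11 FPKM in control 1, 2 and 3. Every DSS sample was far above every control. The mean of 34.95 ± 3.99 FPKM in DSS was 3.85 times that of 9.08 ± 1.38 FPKM in controls (log2 fold change 1.84 ± 0.17 SE, adjusted p = 0.00126, limma), and the gene was called in all 15 alternatives, with adjusted p up to 0.0118. It lies on chromosome 5, 149264767 to 149288153 on the + strand, and 13.3% of its exonic bases overlap the antisense transcript Gm19719. Its partner Alox5 was too low to be tested, with 0.915, 0.643 and 1.18 FPKM in DSS 1, 2 and 3 and 1.13, 0.784 and 0.998 FPKM in control 1, 2 and 3.

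Alox5ap and Ptgs2 are both known from myeloid cells, and Ptgs1, Alox5ap and Hpgds also from tuft cells. Among neutrophil markers Cxcr2, Csf3r and Mmp8 passed the filter through the DSS samples alone, and 5 of the other 6 tested rose. For this and the lists below, the shares of all tested genes called were 6.34% higher and 2.56% lower. The summed level of all 9 neutrophil markers was 4319 to 7195 FPKM in DSS samples and 36.5 to 63.3 FPKM in control colon. In DSS samples most of it was S100a8 and S100a9, at 3229 ± 851 and 2449 ± 721 FPKM. Cxcr2 and Csf3r have near-identical stretches in other transcripts, so their levels are uncertain. Of 10 macrophage and monocyte markers Itgam rose, at 6.36 ± 2.32 FPKM in DSS samples and 1.50 ± 0.304 FPKM in controls (adjusted p = 0.0135, limma), and Itgam is also known from neutrophils. The other 9 did not pass, and of the 10 log2 fold changes 7 were positive and 3 negative, among them Csf1r at 6.50 ± 2.57 FPKM in DSS samples and 9.79 ± 1.84 FPKM in controls. The summed level of this list, most of it Lyz2, was 606 to 795 FPKM in DSS samples and 441 to 549 FPKM in control colon. Lyz2 has a near-identical copy, the gene Lyz1, and hence an uncertain level. Among tuft cell markers 3 of 9 were tested. Gnat3, which passed the filter through the controls alone, was called lower, at 0.240 ± 0.249 FPKM in DSS samples and 1.66 ± 0.165 FPKM in controls (adjusted p = 0.0160, limma). Dclk1 pointed up, at 2.06 ± 0.485 FPKM in DSS samples and 1.77 ± 0.197 FPKM in controls. Sh2d7 pointed down, at 0.738 ± 0.564 FPKM in DSS samples and 1.18 ± 0.140 FPKM in controls. Neither was called (adjusted p = 0.666 and 0.383, limma). Pou2f3, Il25 and Gfi1b were listed at 0 in some samples. The summed level of the tuft cell list was 2.92 to 6.46 FPKM in DSS samples and 6.31 to 7.34 FPKM in control colon. Mast cell markers summed to 12.3 to 13.9 FPKM in DSS samples and 10.5 to 14.5 FPKM in controls (0 of 3 tested called, Tpsab1 at 0 in all samples). The genes behind these sums did not move together. Kit, at 6.69 ± 2.55 FPKM in DSS samples and 5.51 ± 1.89 FPKM in controls, and Mcpt1 pointed up. Cma1 pointed down, at 1.67 ± 0.931 FPKM in DSS samples and 5.17 ± 4.26 FPKM in controls. Mcpt2 and Fcer1a, too low to be tested, were higher in every DSS sample than in any control. Platelet markers summed to 34.7 to 54.4 FPKM in DSS samples and 30.9 to 42.9 FPKM in controls (0 of 2 tested called). The 2 tested genes went opposite ways without overlap between groups. Pf4 had 15.1 ± 2.18 FPKM in DSS samples and 30.9 ± 10.8 FPKM in controls. Gp1bb had 27.7 ± 14.0 FPKM in DSS samples and 6.45 ± 5.51 FPKM in controls. Enteric neuron and glia markers summed to 16.1 to 32.5 FPKM in DSS samples and 27.4 to 34.1 FPKM in controls (0 of 7 tested called). Epithelial markers were abundant in both groups, as the colon label implies, and Krt8 and Krt19 fell among 8, with sums of 7919 to 9615 FPKM in DSS samples and 12189 to 15745 FPKM in control colon. Krt8 has a near-identical pseudogene copy, so its level is uncertain. The part of any of these cells in the members' values was not tested.

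**Figure D4:**
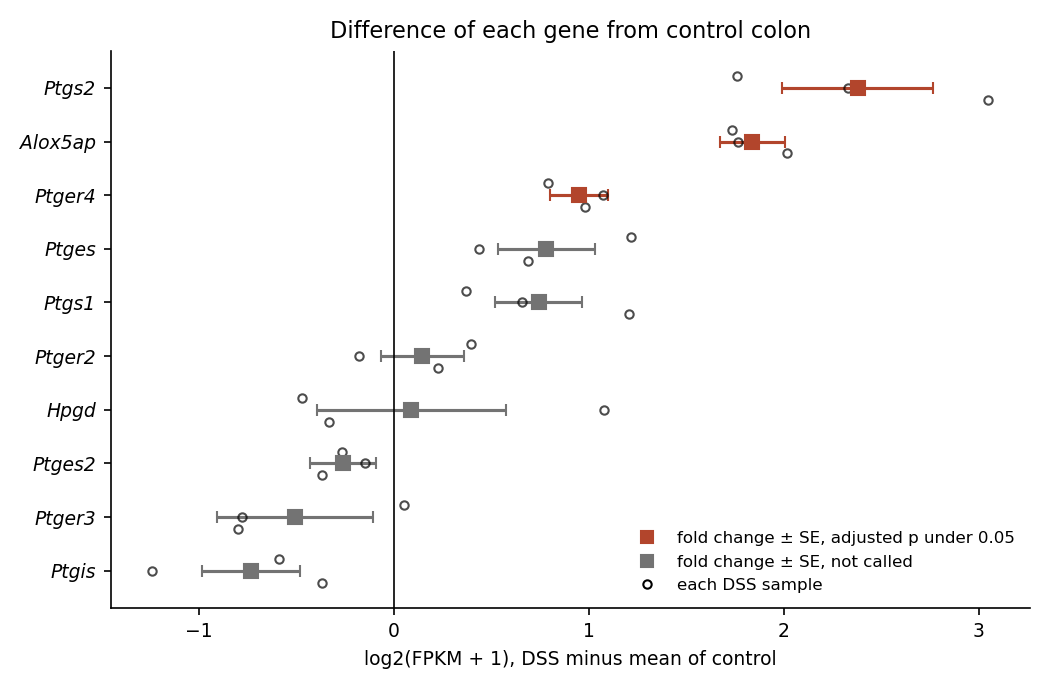
Log2 fold change of each gene, DSS minus control on the log2(FPKM + 1) scale (squares, bars ± SE, coloured where adjusted p was under 0.05), with each DSS sample's difference from the control mean (open circles). Ptgs2, Alox5ap and Ptger4 are called, and the DSS samples of Ptger2, Ptger3 and Hpgd fall on both sides of 0.

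The members varied differently among the DSS samples. Against the control mean on the log2(FPKM + 1) scale, Ptgs2 differed by 1.76, 2.33 and 3.05 in DSS 1, 2 and 3, and Ptgs1 by 0.37, 0.65 and 1.20. Both therefore differed least in DSS 1, the sample nearest to control colon, and most in DSS 3. Ptges took another order, at 1.22, 0.44 and 0.69, largest in DSS 1. Alox5ap was nearly even, at 1.73, 1.76 and 2.02, as was Ptger4, at 0.79, 1.07 and 0.98.

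The tested genes whose centred log2(FPKM + 1) values lay closest to those of a member over the 6 samples were found by root mean square difference, as a description among 12344 uniquely named genes. Closest to Ptgs2 were Tmem252 (0.24), Gml (0.25) and Lilrb4a (0.26). For Ptges they were Sirpa, Selplg and Aif1, at 0.08 each. These differences are not scaled to how much a member itself varied, so they cannot be compared between members. For Hpgd they were 9130024F11Rik (0.22), Tmem171 (0.24) and Agtr1a (0.25). Tmem171 had 97.2, 289.5 and 113 FPKM in DSS 1, 2 and 3 and 53.1, 187 and 149 FPKM in control 1, 2 and 3, high in DSS 2 and low in control 1 as Hpgd was.

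The rest of the eicosanoid pathway was followed in 5 lists, also chosen with earlier results of these data known. They held 53 genes, of which 38 were tested, 9 rose and 1 fell. Over all tested genes 6.34% were called higher and 2.56% lower. Of the 9, Ggt1, Dpep2, Ltb4r1 and Fpr2 of the leukotriene branch passed the filter on low values through the DSS samples alone, where they were high, so their calls do not count as support. Among the other 34 tested genes 5 rose, Ptges3, Ggt5, Cyp4f18, Ereg and Pde4b, and 1 fell. Leaving out a DSS sample removes those 4 genes from the test by construction. With a sample left out the number that rose was 5 without DSS 1, 3 without DSS 2, 2 without DSS 3, 5 without control 1, 4 without control 2 and 4 without control 3, and the number that fell was 2 without DSS 1 and 0 without DSS 3 or any control.

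Of 11 tested genes for arachidonic acid release and other synthases, Ptges3 rose and Hpgds fell (median log2 fold change -0.15, against 0.13 over all tested genes). The shares of all tested genes called were 6.34% higher and 2.56% lower. Ptges3, a co-chaperone also described as the cytosolic prostaglandin E synthase, had 98.7 ± 18.7 FPKM in DSS samples and 54.1 ± 4.17 FPKM in controls (log2 fold change 0.84 ± 0.17 SE, adjusted p = 0.0292, limma). It has a near-identical pseudogene copy, so its level is uncertain, and it lost the call in 8 of 15 alternatives, among them both other scalings named above and the samples left out other than DSS 1, with adjusted p up to 0.111. Hpgds, the haematopoietic prostaglandin D synthase, had 2.14, 2.18 and 1.90 FPKM in DSS 1, 2 and 3, against 4.56, 5.59 and 3.99 FPKM in control 1, 2 and 3. These groups were apart (log2 fold change -0.89 ± 0.17 SE, adjusted p = 0.0246, limma), and the call was lost without DSS 3 or any control, with adjusted p up to 0.110. The phospholipase Pla2g4a, which frees arachidonic acid, had 30.7 ± 1.23 FPKM in DSS samples and 25.3 ± 2.84 FPKM in controls (adjusted p = 0.250, limma). Ptgds, the other prostaglandin D synthase, was listed at 0 in all samples but control 3, at 0.232 FPKM. The housekeeping gene Gapdh has the value 0 in DSS 1 and 21.4 and 36.1 FPKM in DSS 2 and DSS 3. In control 1, 2 and 3 it has 2.00, 0.117 and 0.145 FPKM. A listed 0 can therefore be a failed estimate, and so can a low value above 0.

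None of the 6 tested genes of prostanoid export, uptake and inactivation passed (limma, 2 at an unadjusted p under 0.05, median log2 fold change 0.04). Slco2a1, the prostaglandin uptake transporter, had 12.2, 9.41 and 8.89 FPKM in DSS 1, 2 and 3, against 17.8, 12.98 and 16.4 FPKM in control 1, 2 and 3, with the groups apart (adjusted p = 0.0958, limma). Of 6 other prostanoid receptors only Ptger1 and the thromboxane receptor gene Tbxa2r were tested and neither passed (limma, 0 at an unadjusted p under 0.05, median log2 fold change -0.36). Ptgdr2, a prostaglandin D2 receptor gene, was listed at 0 in every sample, and Ptgdr in every control and in DSS 2. Ptgir, the prostacyclin receptor gene, was below the level for testing, at 1.19, 0.631 and 0.724 FPKM in DSS 1, 2 and 3 and 0.696, 0.322 and 0.473 FPKM in control 1, 2 and 3.

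In the leukotriene and lipoxin branch 9 genes were tested, 4 of them (Ggt1, Dpep2, Ltb4r1 and Fpr2) only because they reached 1 FPKM in the DSS samples. Of the other 5, Ggt5 and Cyp4f18 rose and 0 fell, with a median log2 fold change of 0.26. The shares of all tested genes called were 6.34% higher and 2.56% lower. Ggt1 and Ggt5, transferases that turn leukotriene C4 into D4, had 7.69, 21.7 and 9.98 FPKM and 6.79, 7.07 and 5.22 FPKM in DSS 1, 2 and 3, against 0.523, 0.0814 and 0.384 FPKM and 1.42, 1.58 and 1.67 FPKM in control 1, 2 and 3. All DSS values of both lay above all controls (adjusted p = 0.00262 and 0.00308, limma). Dpep2, the dipeptidase of the next step, had 3.13 ± 1.23 FPKM in DSS samples and 0.577 ± 0.176 FPKM in controls (adjusted p = 0.0164, limma). Cyp4f18, which in mice inactivates leukotriene B4, had 9.22 ± 1.29 FPKM in DSS samples and 1.94 ± 0.237 FPKM in controls (log2 fold change 1.80 ± 0.17 SE, adjusted p = 0.00164, limma).

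Of the receptor genes of this branch, Ltb4r1 and Fpr2 were called higher, both tested through the DSS samples alone. Ltb4r1, a leukotriene B4 receptor of leukocytes, had 2.35, 1.31 and 2.15 FPKM in DSS 1, 2 and 3, against 0.339, 0.193 and 0.481 FPKM in control 1, 2 and 3 (adjusted p = 0.0181, limma). Fpr2, a formyl peptide and lipoxin receptor with a near-identical pseudogene copy and hence an uncertain level, had 5.27, 4.67 and 4.86 FPKM in DSS 1, 2 and 3, and among controls was listed at 0 in control 1 and control 2 and at 0.254 FPKM in control 3 (adjusted p = 0.000539, limma). Cysltr1, a receptor for cysteinyl leukotrienes, had 1.77 ± 0.482 FPKM in DSS samples and 1.30 ± 0.194 FPKM in controls, overlapping and not called (adjusted p = 0.409, limma). Ltb4r2 and Cysltr2 were too low to be tested, at 0.171 and 0.254 FPKM on average in DSS samples and 0.412 and 0.333 FPKM in controls. Dpep2 and Ltb4r1 lost their calls without any 1 control (adjusted p up to 0.0812 and 0.0917). Synthetic enzymes downstream of Alox5 did not pass. Lta4h had 51.7 ± 3.70 FPKM in DSS samples and 43.5 ± 6.24 FPKM in controls (adjusted p = 0.331, limma), and Ltc4s had 1.48, 4.63 and 3.41 FPKM in DSS 1, 2 and 3 and 2.38, 2.99 and 3.72 FPKM in control 1, 2 and 3.

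**Figure D5:**
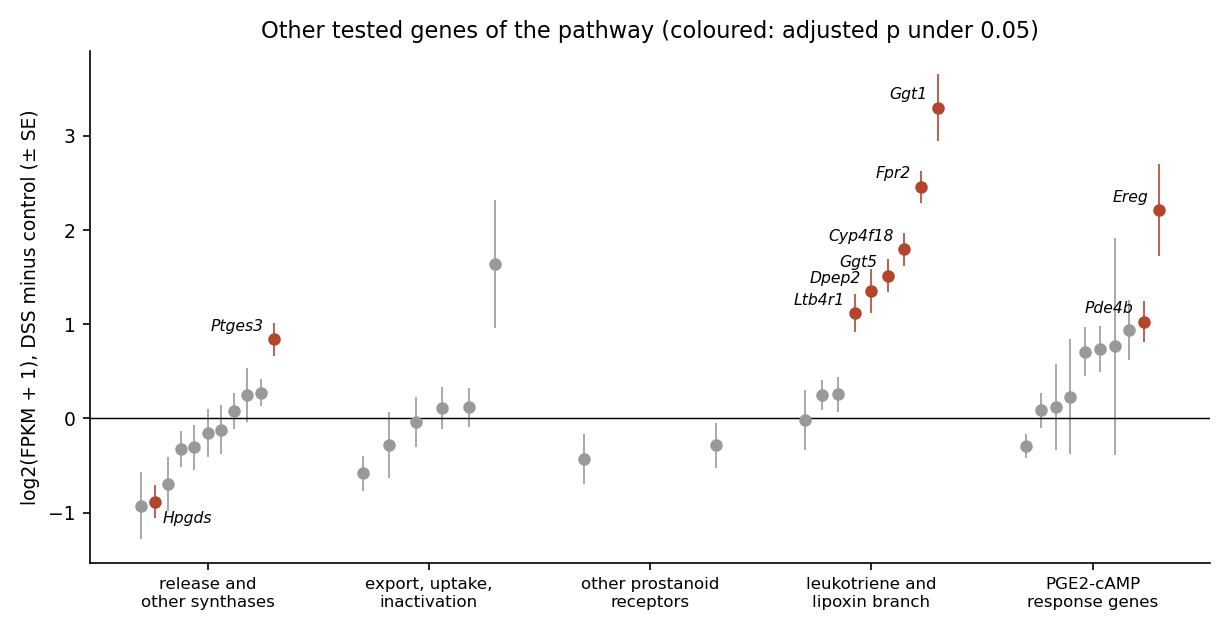
Log2 fold change ± SE, DSS minus control on the log2(FPKM + 1) scale, of the 38 tested genes in 5 lists of the eicosanoid pathway, with called genes coloured and named. Ggt1, Dpep2, Ltb4r1 and Fpr2 were tested only because they reached 1 FPKM in DSS samples, and Hpgds is the called gene that lies below 0.

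Of 10 tested genes known to respond to prostaglandin E2 and cyclic AMP, Ereg and Pde4b rose and none fell. Over all tested genes 6.34% were called higher and 2.56% lower. The median log2 fold change was 0.72 over the 10 genes and 0.13 over all tested genes. As this list was chosen with earlier results of these data known, the comparison is a description only. Ereg, which encodes the growth factor epiregulin, had 37.9, 18.02 and 17.1 FPKM in DSS 1, 2 and 3, against 9.05, 3.51 and 1.97 FPKM in control 1, 2 and 3 (log2 fold change 2.21 ± 0.49 SE, adjusted p = 0.0385, limma). The groups were apart, with DSS 1 and control 1 highest in their groups. Ereg lost the call in 9 of 15 alternatives, among them the TPM, upper-quartile and median-of-ratios scalings and every sample left out but control 1, with adjusted p up to 0.129. Pde4b, a phosphodiesterase that degrades cyclic AMP, had 7.88, 4.89 and 6.43 FPKM in DSS 1, 2 and 3, against 3.36, 2.17 and 2.31 FPKM in control 1, 2 and 3 (adjusted p = 0.0315, limma). It lost the call with no filter on low values, without DSS 3 and without any 1 control, with adjusted p up to 0.127. Many other signals are known to act on these genes, and their part was not tested.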

How the data were processed

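Per the file headers the deposited values are FPKM for each gene, 1 file per sample. TopHat2 2.1.1 and mm10 are named in the submitters' processing notes, and which software and gene models gave FPKM is not given in the sources used here. The labels' protocols name TRIZOL extraction, poly(A) selection and second-strand synthesis that keeps no direction, so strand was taken as not recorded. Read totals per sample are unknown, so counting error could not be given.

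Values were set to log2(FPKM + 1), without rescaling, for genes reaching 1 FPKM in 3 or more samples. DSS was set against control with limma 3.58.1 under R 4.3.3 (trended, robust variance, two-sided, Benjamini-Hochberg over all 12348 genes, threshold 0.05). The fit was tested on simulated data. Within-sample log2 ratios of 4 pairs were compared by exact permutation (scipy 1.17.1). Members and lists were chosen with earlier results of these data known. Named are all members, all called genes of the pathway lists, and some other genes of each list, among them some listed at 0. Of the marker lists the called genes Retnlg, Lcn2, Clec4d, Car4, Slc26a3, Cdhr5 and Slc26a2 are not described above. Hpgds, Alox5, Ltc4s, Ptgir and Tmem171 values per sample, and the list genes named for their role, were picked with the values in view.

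GENCODE vM21 gave coordinates on GRCm38 (mm10), and RefSeq gave promoters on GRCm38.p6. Copies were sought with BLAST+ 2.17.0 (at least 95% identity over 200 bases), and no member had one outside its own locus. No pairing of samples is stated in the labels. Figures were drawn with matplotlib 3.10.9.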

Additional observations from a re-analysis of the deposited data

How the results depend on the processing

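Alternatives were other pseudocounts, filters, scalings and moderation, the replicate number as a block, and each sample left out. Of the members, Alox5ap kept its call in all 15, Ptgs2 in 13 and Ptger4 in 12, the losses being fits with 5 samples. Upper-quartile scaling gave 505 genes higher and 532 lower, and median-of-ratios scaling 517 and 503, where the median of all genes moved to -0.01 and 0.00 (-0.0024), against 0.13. With each sample left out, 191 to 972 genes were higher and 58 to 584 lower, 1 to 4 members rose, and 2 to 5 pathway genes rose and 0 to 2 fell. Without a DSS sample 4 of the pathway genes were not tested, by construction. For the other changes the cause was not tested. The Ptgs2 to Ptgs1 difference was 2.03 with a pseudocount of 0.1 and 2.09 with none, against 1.64, by construction since Ptgs2 is low in control colon. The uncalled Hpgd difference changed sign to -0.081 with upper-quartile and -0.069 with median-of-ratios scaling, and ran from -0.40 (without DSS 2) to 0.37 (without DSS 1) as samples were left out. With the replicate block 640.0 genes were higher and 255 lower, and 3 members rose. The deviations of same-numbered samples correlated at 0.082, 0.129 and 0.003, and 4 of 6 samples matched their own number best. With 3 samples in each group these values cannot decide whether same-numbered samples share more than a number. Depth is unknown, so genes near 1 FPKM such as Ptger2 rest on an unknown number of reads.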

Other observations

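Control 1 stood apart from the other controls in several genes of the pathway. Nr4a1, an immediate early nuclear receptor gene, had 2.99, 6.08 and 11.2 FPKM in DSS 1, 2 and 3. In controls it had 11.7 FPKM in control 1, while control 2 and control 3 had 4.98 and 1.78 FPKM. Areg, which encodes the growth factor amphiregulin, had 43.7, 34.1 and 60.9 FPKM in DSS 1, 2 and 3. In controls it had 87.1 FPKM in control 1, while control 2 and control 3 had 26.0 and 30.6 FPKM. Control 1 was also the highest control for Ptgs2, Ereg and Pde4b and the lowest for Hpgd and Ptger3. These genes were singled out after their values were seen.

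DSS 2 stood apart from the other DSS samples in Akr1c18, a steroid and prostaglandin reductase gene, which had 0.892, 12.2 and 2.92 FPKM in DSS 1, 2 and 3, against 1.15, 0.222 and 0.231 FPKM in control 1, 2 and 3 (adjusted p = 0.170, limma), highest in DSS 2 as Hpgd was. Il1rl1, the interleukin-33 receptor gene, was lowest in DSS 2 and in control 2, with 24.3, 0.414 and 6.09 FPKM in DSS 1, 2 and 3, against 8.94, 0.462 and 2.56 FPKM in control 1, 2 and 3.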
